A study of Rattus norvegicus with 18 samples.

Results

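The genes of meiotic entry, the meiotic chromosome axis and meiotic recombination described here were chosen by symbol from textbook knowledge of meiosis. The choice was made with earlier results of these data known. The genes were followed through all 18 libraries of a rat developmental series.
They are Stra8, Rec8, Smc1b, Stag3, Sycp2, Sycp3, Hormad1, Sycp1, Spo11 and Dmc1, which are 10 of the 32545 lines of the deposited table, with 1 line each. All 10 were among the 14865 genes tested, which reached 1 RPKM in at least 2 libraries.
RPKM scales reads to gene length and library size, so levels of different genes can be set side by side.
The rats were of the strain Crlj:WI and carried Prdm14-Venus, a fluorescent reporter named for a germ cell gene, in every group. How cells were picked is not given in the sources used here.
The later groups were primordial germ cells (PGC), from which eggs or sperm later form: 2 libraries of females and 2 of males at E15.5, and 2 libraries each at E12.5, E11.5, E10.5 and E9.5, whose sex is not labelled.
The earlier groups were epiblast, the embryonic layer from which germ cells arise, with 3 libraries each at E7.75 and E7.25, of which 2 were labelled male and 1 female on each day.
The labels do not say whether replicates are different animals, so each p below rests on a spread between libraries that could be technical.
No label gives a stage of meiosis, so "before meiosis" here covers epiblast and PGC up to E12.5. Males of E15.5 are left out of it and given apart, although male germ cells enter meiosis after birth.

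In meiosis, a germ cell copies its DNA, pairs its chromosomes, cuts and recombines them along a protein axis, and then divides in successive rounds without copying again. In rodents, female germ cells enter meiosis in the fetal ovary, whereas male germ cells stop cycling in the fetal testis and enter meiosis after birth. STRA8 is the regulator of entry in the mouse, the cohesin subunits REC8, SMC1B and STAG3 hold the copied strands together, SYCP2, SYCP3 and HORMAD1 build the axis, SYCP1 zips paired axes, SPO11 cuts DNA and DMC1 repairs the cuts from the partner chromosome.

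The libraries differed in depth and in traces of other cells. Relative depth, read from the steps between low values and set to 100% in E7.75 female, was 82.4% to 120.6% in 14 libraries but 20.7% to 23.0% in the 4 of E10.5 and E11.5. Some of the genes listed at 0 at E10.5 may therefore lie below what these libraries could detect. The summed level of 10 germ cell markers was 427 to 604 RPKM at E9.5 and 657 to 1971 RPKM at later stages, against 21.5 to 46.6 RPKM in epiblast, and all 10 were at 1 RPKM or more at E12.5. The 6 epiblast markers in the table summed to 489 to 2538 RPKM in PGC, against 3122 to 4314 RPKM in epiblast, with Fgf5 listed at 0 in every library, so they did not separate the groups as widely. The 8 mesenchyme markers summed to 417 and 435 RPKM at E9.5, against at most 42.6 RPKM in any other group. The blood markers summed to 56.6 RPKM in E12.5 replicate 1, which stood apart, against 2.19 RPKM in E12.5 replicate 2 and at most 12.8 RPKM in the other groups. In bulk RNA, a gene transcribed in fewer cells and one with less RNA per cell cannot be told apart.

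Promoters of all 10 genes were found in the RefSeq table of the rat build GRCr8, as 300 bases each from 250 before the annotated start to the 50 from it onwards. These coordinates are in GRCr8 and not in rn6, the build named for the deposited values. Motifs were searched on both strands as GCGGGA (an E2F core), CACGTG (an E-box), CNCCTCAG (a motif reported for STRA8 in the mouse) and CCAAT. The E2F core is shown because, in mouse cells, E2F6 is known to bind the promoters of Smc1b and Stag3 and to keep them silent outside the germ line.
The first pair below is of cohesin genes with the core (Stag3 also has the STRA8 motif), Smc1b at chr7:118122599-118122898 (minus strand) and Stag3 at chr12:22398158-22398457 (plus strand). The next is of Hormad1 at chr2:185805422-185805721 (plus strand), which has the core and an E-box, and of Rec8 at chr15:33079568-33079867 (plus strand), which has the core. The last is of Stra8 at chr4:64568330-64568629 (plus strand) and Dmc1 at chr7:113047805-113048104 (minus strand), the members without it. Capitals mark the E2F core (GCGGGA or its complement), the E-box and the STRA8 motif, 5′ to 3′ on the gene's strand.
Smc1b: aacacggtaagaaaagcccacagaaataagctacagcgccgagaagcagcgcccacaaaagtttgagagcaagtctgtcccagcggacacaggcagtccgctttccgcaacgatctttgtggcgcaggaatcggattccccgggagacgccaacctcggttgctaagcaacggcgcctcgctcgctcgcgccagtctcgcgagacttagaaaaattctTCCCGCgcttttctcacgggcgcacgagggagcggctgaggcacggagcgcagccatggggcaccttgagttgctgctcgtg
Stag3: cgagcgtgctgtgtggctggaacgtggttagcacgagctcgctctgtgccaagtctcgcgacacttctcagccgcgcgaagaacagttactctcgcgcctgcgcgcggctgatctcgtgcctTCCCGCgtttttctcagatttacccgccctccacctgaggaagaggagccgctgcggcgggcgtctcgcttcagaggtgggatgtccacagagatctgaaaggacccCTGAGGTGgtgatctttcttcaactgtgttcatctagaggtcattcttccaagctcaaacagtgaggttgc
Hormad1: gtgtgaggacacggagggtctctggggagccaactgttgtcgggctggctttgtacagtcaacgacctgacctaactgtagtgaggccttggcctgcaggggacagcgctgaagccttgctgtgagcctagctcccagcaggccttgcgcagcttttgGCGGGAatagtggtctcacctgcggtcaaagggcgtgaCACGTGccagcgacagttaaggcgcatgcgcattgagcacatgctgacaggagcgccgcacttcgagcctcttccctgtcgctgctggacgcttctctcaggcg
Rec8: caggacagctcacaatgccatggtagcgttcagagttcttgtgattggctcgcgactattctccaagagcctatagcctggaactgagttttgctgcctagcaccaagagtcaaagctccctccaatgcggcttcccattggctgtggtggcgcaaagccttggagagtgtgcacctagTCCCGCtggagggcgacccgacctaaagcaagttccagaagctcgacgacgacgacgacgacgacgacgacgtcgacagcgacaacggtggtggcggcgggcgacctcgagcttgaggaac
Stra8: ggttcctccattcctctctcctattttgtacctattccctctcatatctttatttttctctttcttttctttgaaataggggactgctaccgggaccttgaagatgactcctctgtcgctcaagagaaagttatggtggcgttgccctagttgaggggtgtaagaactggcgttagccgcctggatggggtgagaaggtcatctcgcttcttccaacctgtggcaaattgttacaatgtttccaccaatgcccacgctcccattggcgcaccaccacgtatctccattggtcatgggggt
Dmc1: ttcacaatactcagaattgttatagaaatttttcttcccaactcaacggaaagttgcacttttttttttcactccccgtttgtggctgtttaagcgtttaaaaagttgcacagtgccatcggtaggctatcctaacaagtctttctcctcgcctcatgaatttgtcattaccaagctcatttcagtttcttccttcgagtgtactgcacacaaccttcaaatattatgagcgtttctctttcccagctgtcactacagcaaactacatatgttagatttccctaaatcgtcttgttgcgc

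The E2F core occurred in 8 of the 10 promoters, against 19.8% of the 27457 rat promoters searched. The 2 promoters without it, of Stra8 and Dmc1, belonged to the 2 genes that were not above 1 RPKM in any library before E15.5, and of the 8 genes with it 7 were on before meiosis and 1 was mixed, as described below. The E-box occurred in 2 of 10 (Sycp3, with 2 copies, and Hormad1), against 6.65% of all promoters. The STRA8 motif occurred in 3 of 10 (Stag3, Sycp2 and Sycp1), against 8.82%, and CCAAT in 5 of 10, against 37.7%. The members held a median of 17 CpG pairs (range 9 to 30), against a median of 7 over all promoters (quartiles 3 and 20), and Stra8 and Dmc1 had the lowest number, 9 each. The E2F core itself holds a CpG pair, so the core and the number of CpG pairs cannot be told apart in these 10 promoters. A relation of either to the levels was not tested. A match is a run of letters in a window, and binding was not measured.

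Of the 10 genes, 7 were on in at least 1 stage before meiosis, where on means at least 1 RPKM in every library of a group, off means under 1 RPKM in every library, and mixed stands for the rest. The 7 were Rec8, Smc1b, Stag3, Sycp2, Sycp3, Hormad1 and Spo11. Of all genes tested, 73.4% were on at E12.5 alone, so at least that share was on in some stage before meiosis. A count of 7 of 10 does not stand above it. Sycp1 was mixed at E12.5 and on in E15.5 males, which this count leaves out. Stra8 and Dmc1 were off at every stage before E15.5.
The number on was 1 at E7.25 (Sycp3), 0 at E7.75, 1 at E9.5 (Spo11), 2 at E10.5 (Smc1b and Spo11), 4 at E11.5 (Smc1b, Stag3, Sycp3 and Hormad1) and 6 at E12.5, when Rec8 and Sycp2 were added. At E15.5 all 10 were on in females and 8 in males, without Stra8 and Dmc1. Over the same groups 65.3% to 74.1% of all genes tested were on, so before E15.5 the share of members that were on lay below that of all genes at every stage. With a threshold of 5 RPKM, the 4 members Smc1b, Stag3, Sycp3 and Hormad1 were on before meiosis, and at 0.5 RPKM, or without E12.5 replicate 1, Sycp1 joined the 7 to make 8.

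**Figure D1:**
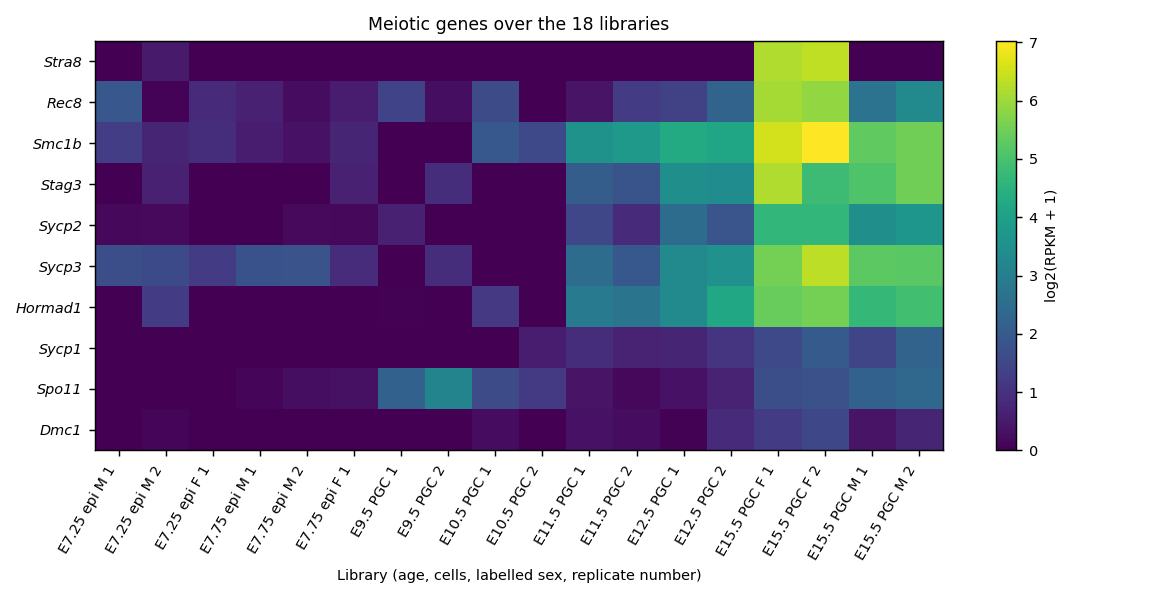
Level of the 10 genes (rows) in each of the 18 libraries (columns, by age, with E15.5 females left of males), coloured by log2(RPKM + 1). Smc1b, Stag3, Sycp3 and Hormad1 are above 1 on this scale in every library from E11.5 on, Stra8 is bright in the 2 E15.5 female libraries only, and Spo11 is brightest in E9.5 replicate 2.

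The sum of the 10 levels shows the order of the stages. It was 2.86 to 6.53 RPKM in the 6 epiblast libraries, 5.88 and 9.93 RPKM at E9.5, 8.37 and 3.67 RPKM at E10.5, 29.0 and 26.6 RPKM at E11.5 and 54.6 and 63.8 RPKM at E12.5. At E15.5 it was 420 and 451 RPKM in females and 155 and 184 RPKM in males. Epiblast, E9.5 and E10.5 overlapped, and from E11.5 each group lay above all libraries of the younger ages.

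Among the cohesin subunits, Smc1b (the meiotic form of the core subunit SMC1A) came on first. Its level was 0.28 to 1.42 RPKM in epiblast (median 0.66), 0.015 and 0.0077 RPKM at E9.5, 2.80 and 1.94 RPKM at E10.5, 11.1 and 12.6 RPKM at E11.5 and 18.7 and 16.9 RPKM at E12.5. From E10.5 each stage lay wholly above the one before.
Stag3, the meiotic partner of the cohesin ring, stood at 0 to 0.57 RPKM in epiblast (median 0), 0.015 and 0.89 RPKM at E9.5, 0 in both libraries at E10.5, 3.23 and 2.56 RPKM at E11.5 and 10.3 and 9.77 RPKM at E12.5. It thus appeared a day after Smc1b in these libraries, although the shallow E10.5 libraries could miss low levels.
Rec8, the meiotic kleisin that closes the ring, lagged behind both. It ranged from 0.050 to 2.75 RPKM in epiblast (median 0.51), with 1.68 and 0.19 RPKM at E9.5, 2.1 and 0 RPKM at E10.5, 0.29 and 1.35 RPKM at E11.5 and 1.58 and 3.68 RPKM at E12.5. Its stages overlapped up to E11.5, and of the E12.5 libraries 1 lay within the range of epiblast and 1 above it.

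Among the axis genes, Sycp3 and Hormad1 were on in PGC a day after Smc1b, and Sycp2 a day later still. Sycp3, a filament protein of the axis, was at 0.85 to 2.47 RPKM in epiblast (median 2.11), 0 and 0.89 RPKM at E9.5, 0 in both libraries at E10.5, 4.59 and 2.85 RPKM at E11.5 and 9.33 and 10.7 RPKM at E12.5. It was the highest member in 5 of the 6 epiblast libraries, and all 4 libraries of E9.5 and E10.5 lay below 5 of the 6.
Sycp2, its partner in the axis, was at 0 to 0.13 RPKM in epiblast (median 0.12), 0.57 and 0.0065 RPKM at E9.5, 0 at E10.5, 1.84 and 0.81 RPKM at E11.5 and 4.58 and 2.64 RPKM at E12.5.
Hormad1, which marks axes that have not yet paired, was at 0 in 5 of 6 epiblast libraries and 1.33 RPKM in the other, 0.020 and 0 RPKM at E9.5, 1.23 and 0 RPKM at E10.5, 6.54 and 5.48 RPKM at E11.5 and 9.19 and 17.7 RPKM at E12.5. In all 3 axis genes both libraries of E11.5 lay above both of E10.5, and both of E12.5 above both of E11.5.

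Sycp1, which forms the transverse filaments of the synaptonemal complex, was listed at 0 in all epiblast and E9.5 libraries. It had 0 and 0.46 RPKM at E10.5, 0.88 and 0.62 RPKM at E11.5 and 0.66 and 1.07 RPKM at E12.5. These last 2 stages overlapped.
Spo11, which makes the DNA breaks of meiosis, had another course from the rest. It was at 0 to 0.24 RPKM in epiblast (median 0.039), 3.58 and 7.94 RPKM at E9.5, 2.06 and 1.28 RPKM at E10.5, 0.29 and 0.12 RPKM at E11.5 and 0.26 and 0.64 RPKM at E12.5. Before meiosis it was thus highest in the youngest PGC, in the libraries that also had mesenchyme marker sums of 417 and 435 RPKM and endothelium marker sums of 29.5 and 114 RPKM. At E10.5, when it was still on, those sums were 31.6 to 42.6 RPKM and 1.19 to 3.54 RPKM. Of the 8 mesenchyme markers 6 were on at E9.5, with Col1a2 at 0, and the part of such cells in the Spo11 level was not tested.
Dmc1, the meiotic recombinase, did not pass 0.79 RPKM in any library before E15.5. Stra8 was listed at 0 in every PGC library up to E12.5 and in 5 of 6 epiblast libraries, with 0.41 RPKM in the other.

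**Figure D2:**
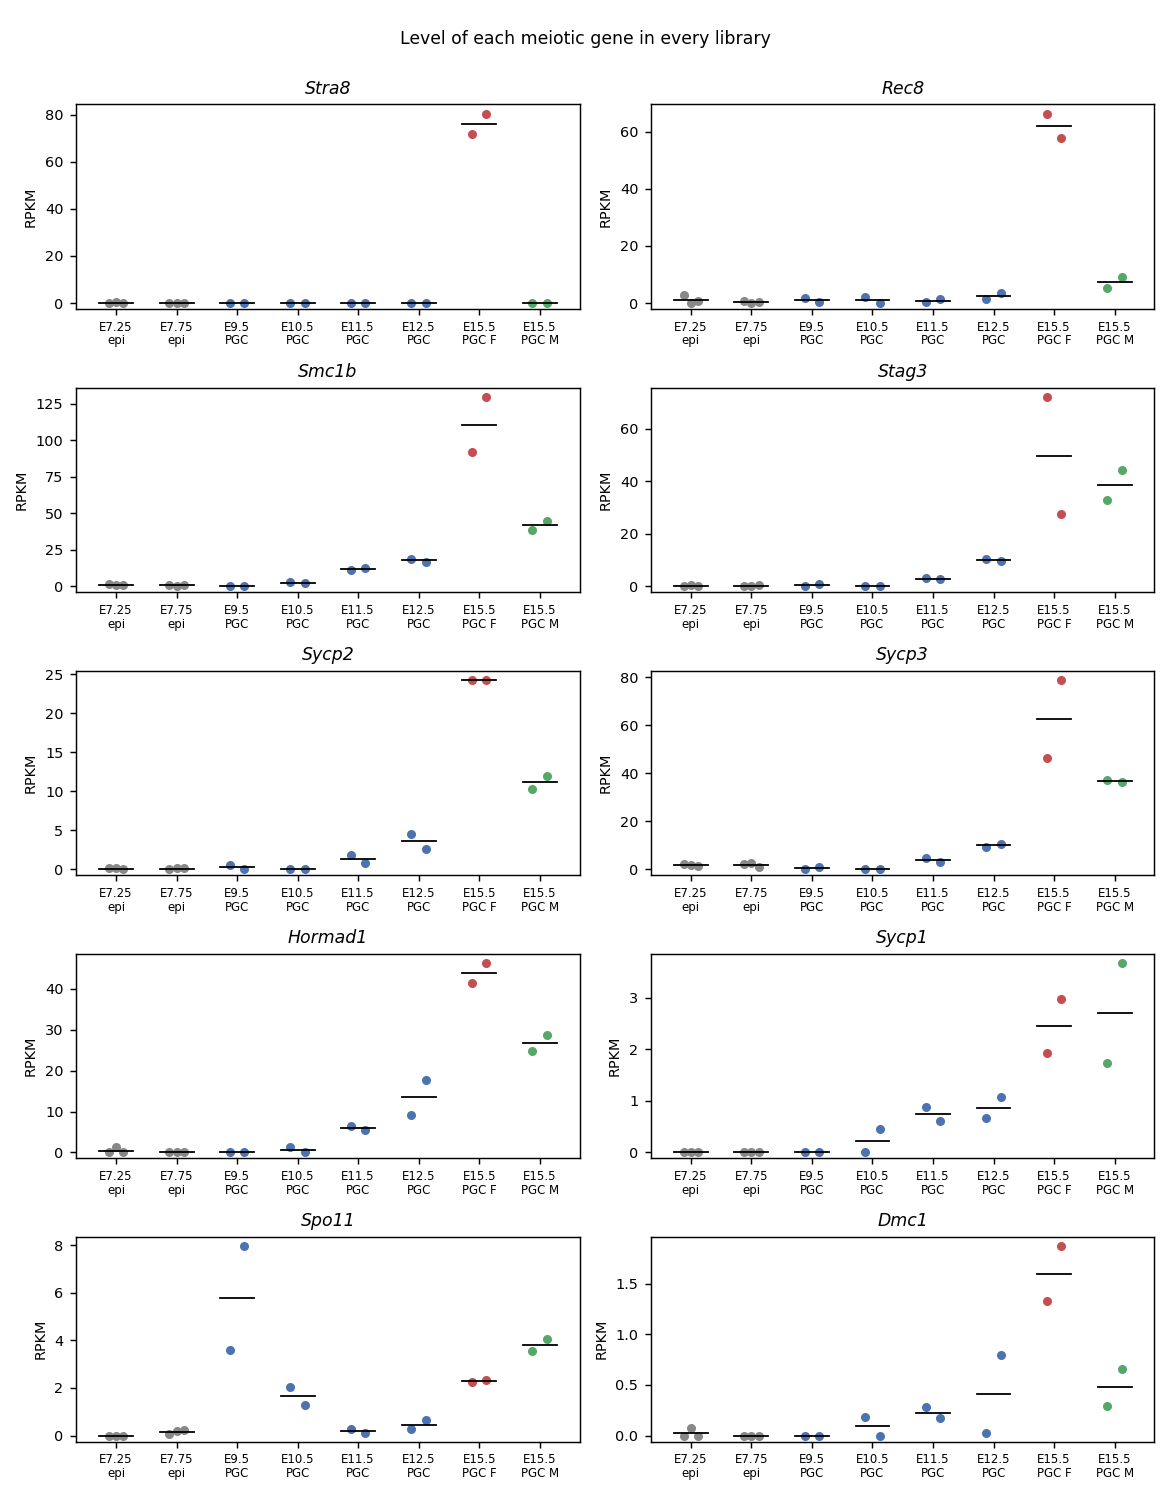
RPKM of each gene (1 panel each, linear axes of different height) in every library; points are libraries and black lines are group means, with epiblast in grey, PGC of E9.5 to E12.5 in blue, E15.5 females in red and E15.5 males in green. Stra8 stands at 71.9 and 80.4 RPKM in E15.5 females and at 0 in E15.5 males, and the mean of Spo11 is highest at E9.5.

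Steps between stages were tested with limma on log2(RPKM + 1), adjusted by Benjamini-Hochberg over all genes, and a fold change below is on that scale, which understates the change of low genes. A ratio of means is of RPKM.
Between E7.75 and E7.25 epiblast 0 of the 10 members passed by limma (0 also at an unadjusted p under 0.05), where 0.269% of all genes passed, 0.101% higher and 0.168% lower (40 genes, and 1300 at an unadjusted p under 0.05).
Between E9.5 PGC and E7.75 epiblast, where 27.6% of all genes passed, 16.3% higher and 11.3% lower, 1 of the 10 passed. Spo11 rose by 2.45 ± 0.30 (SE) on the log2 scale (adjusted p = 3.64e-05, limma), with both E9.5 libraries above all 3 of epiblast. Sycp3 had 0 and 0.89 RPKM at E9.5, against 2.40, 2.47 and 0.85 RPKM at E7.75, a change of -1.02 ± 0.38 (limma adjusted p = 0.0563). These libraries overlapped. The fall of Sycp3 passed in the absence of E7.75 female (limma adjusted p = 0.0219) or of E9.5 replicate 2 (0.0267), and with all libraries kept it passed after quantile scaling (0.0216), with a pseudocount of 0.1 (0.0251), after median-ratio scaling (0.0488), with a filter of 5 RPKM (0.0489) and with the replicate block (0.0496). Smc1b, at 0.011 RPKM on average at E9.5, also fell with a pseudocount of 0.1 (limma adjusted p = 0.00129).

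Between E10.5 and E9.5 PGC, where 29.9% of all genes passed, 11.5% higher and 18.4% lower, Smc1b rose and Spo11 fell, and the other 8 members did not pass. Smc1b averaged 2.37 ± 0.60 RPKM at E10.5 and 0.011 ± 0.0053 RPKM at E9.5 (SD, n = 2 each), a change of 1.72 ± 0.29 (limma adjusted p = 0.000646). Spo11 averaged 1.67 ± 0.55 RPKM at E10.5 and 5.76 ± 3.09 RPKM at E9.5, a change of -1.28 ± 0.33 (limma adjusted p = 0.00878). The Spo11 call was lost without E9.5 replicate 2 (limma adjusted p = 0.0936) and without E10.5 replicate 2 (adjusted p = 0.0599). All genes had a median change of -0.16 in this step, which quantile scaling moved to 0.03; the split of passing genes was 38.5% higher in the main scale and 51.7% higher after quantile scaling, and Spo11 did not pass there (limma adjusted p = 0.103). With the spread of these 4 libraries alone 0 members passed.

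Between E11.5 and E10.5 PGC, 5 of the 10 members rose and 0 fell, where 7.19% of all genes passed, 3.59% higher and 3.61% lower. The 4 libraries were of like relative depth, but they differed in the share of tested genes listed at 0. It was 21.35% and 21.61% at E10.5, against 14.36% and 14.96% at E11.5. The 5 were Smc1b (1.94 ± 0.29, adjusted p = 0.00224), Sycp3 (2.21 ± 0.41, adjusted p = 0.0073), Hormad1 (2.23 ± 0.47, adjusted p = 0.013), Stag3 (1.96 ± 0.46, adjusted p = 0.0219) and Sycp2 (1.18 ± 0.33, adjusted p = 0.0472), all by limma. Stag3, Sycp2 and Sycp3 were listed at 0 in both E10.5 libraries, so no ratio is given for them. The members' median change was 0.86, against 0.03 over all genes, and 6 of 10 had both E11.5 libraries above both E10.5 libraries, as did 24.5% of all genes. Spo11, at 0.21 ± 0.12 RPKM at E11.5 and 1.67 ± 0.55 RPKM at E10.5, had a change of -1.13 ± 0.33 (limma adjusted p = 0.0507), and it passed without E9.5 replicate 1, without E9.5 replicate 2 or without E10.5 replicate 2 (adjusted p = 0.0217, 0.0206 and 0.0494). It also passed after quantile scaling (0.0258), with a pseudocount of 0.1 (0.0368), after median-ratio scaling (0.045) and with no filter (0.0475).
The call of Smc1b held whichever library was left out. That of Stag3 was lost without E10.5 replicate 1 (limma adjusted p = 0.0793), E10.5 replicate 2 (0.051), E11.5 replicate 1 (0.113) or E11.5 replicate 2 (0.0808), and that of Hormad1 without E10.5 replicate 2 (0.0614), E11.5 replicate 1 (0.0763) or E11.5 replicate 2 (0.0581). Sycp3 was lost without E11.5 replicate 1 (0.063), Sycp2 with 15 of the 18 libraries left out in turn (adjusted p up to 0.274), with no filter (0.052), with a filter of 5 RPKM (0.0633) and with the replicate block (0.0536), Hormad1 with a pseudocount of 0.1 (0.0623), and with the spread taken from these 4 libraries alone 0 members passed.

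Between E12.5 and E11.5 PGC 0 members passed by limma (3 at an unadjusted p under 0.05), where 7.21% of all genes did, 4.12% higher and 3.09% lower (1072 genes, and 3080 at an unadjusted p under 0.05). Relative depth was 100.7% and 113.3% at E12.5, against 23.0% and 22.4% at E11.5. The share of tested genes listed at 0 was 9.15% and 10.34% at E12.5, against 14.36% and 14.96% at E11.5. All 6 cohesin and axis genes, and no other member, had both E12.5 libraries above both E11.5 libraries, as did 32.3% of all genes. Their ratios of means ran from 1.5 (Smc1b) to 3.47 (Stag3). Stag3 came closest, at 10.03 ± 0.37 RPKM at E12.5 and 2.89 ± 0.48 RPKM at E11.5 (SD, n = 2 each; 1.51 ± 0.46 on the log2 scale, limma adjusted p = 0.0627). It passed without E9.5 replicate 1 (0.0487), E9.5 replicate 2 (0.049), E15.5 female replicate 1 (0.0348) or E15.5 female replicate 2 (0.0349).

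Set against all 6 epiblast libraries, 6 of the 10 members were higher in E12.5 PGC and 0 were lower, where 46.1% of all genes passed, 25.9% higher and 20.2% lower. Hormad1 had 9.19 and 17.7 RPKM at E12.5, against 1.33 RPKM in 1 epiblast library and 0 in the other 5, a change of 3.58 ± 0.38 (limma adjusted p = 4.18e-06). Smc1b averaged 17.8 ± 1.25 RPKM at E12.5 (SD, n = 2) and 0.73 ± 0.40 RPKM in epiblast (n = 6), a change of 3.47 ± 0.24 (limma adjusted p = 7.48e-08).
Stag3 rose by 3.25 ± 0.38, Sycp2 by 2.06 ± 0.27, Sycp3 by 1.97 ± 0.34 and Sycp1 by 0.89 ± 0.25 on the log2 scale (limma adjusted p at most 0.00878). In each of the 6, both E12.5 libraries lay above all of epiblast, as they did for 31.2% of all genes. Sycp1, which reached only 0.66 and 1.07 RPKM at E12.5, was lost without E12.5 replicate 2 (limma adjusted p = 0.11) and after quantile scaling (0.0544). Rec8, at 2.63 ± 1.48 RPKM at E12.5 and 0.80 ± 0.99 RPKM in epiblast, did not pass (limma adjusted p = 0.105) but did without E7.25 male replicate 1 (0.0394), and Dmc1 did without E12.5 replicate 1 (0.0244; 0.141 with all libraries). Spo11 passed with a pseudocount of 0.1 (0.0239) and with the spread of these libraries alone (0.0216).

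In females of E15.5, 9 of the 10 members were higher than in E12.5 PGC, where 18.4% of all genes passed, 8.6% higher and 9.84% lower. Of these, Stra8 and Dmc1 reached 1 RPKM in E15.5 females alone and so entered the test only through the group in which they were high, and their levels are given as a description. Of the other 8 members, 7 were higher and 0 lower. All 8 had both female libraries above both E12.5 libraries, as did 29.5% of all genes, and their median change was 2.27, against 0 over all genes.
Stra8, the entry regulator, had 71.9 and 80.4 RPKM in E15.5 females and was listed at 0 in both E12.5 libraries. No other member was listed at 0 in both E12.5 libraries, and no ratio to 0 is given.
Rec8 had 66.2 and 57.8 RPKM in E15.5 females, against 1.58 and 3.68 RPKM at E12.5, a 23.6-fold ratio of means (4.18 ± 0.64 on the log2 scale, limma adjusted p = 0.000488). This was the largest ratio among the 9 members with a level above 0 at E12.5.
Smc1b had 91.8 and 129.5 RPKM in E15.5 females, against 18.7 and 16.9 RPKM at E12.5, a 6.23-fold ratio (2.55 ± 0.29, limma adjusted p = 5.41e-05). It was the highest member in both E15.5 female libraries.
Stag3 had 72.1 and 27.4 RPKM in E15.5 females, against 10.3 and 9.77 RPKM at E12.5, a 4.96-fold ratio (2.05 ± 0.46, limma adjusted p = 0.00665). By ratio, its female libraries differed more than those of any other member.

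The axis genes were also higher in E15.5 females than at E12.5. Sycp3 had 46.5 and 78.7 RPKM in E15.5 females, against 9.33 and 10.7 RPKM at E12.5 (6.26-fold; 2.49 ± 0.41, limma adjusted p = 0.000851). Sycp2 had 24.3 RPKM in both E15.5 female libraries, against 4.58 and 2.64 RPKM at E12.5 (6.72-fold; 2.49 ± 0.33, limma adjusted p = 0.000174). Hormad1 had 41.4 and 46.2 RPKM in E15.5 females, against 9.19 and 17.7 RPKM at E12.5 (3.26-fold; 1.70 ± 0.47, limma adjusted p = 0.0207). These 3 genes reached several times their E12.5 level without overlap.
The members for breaks, repair and synapsis, Spo11, Dmc1 and Sycp1, stayed low at E15.5. Spo11 had 2.25 and 2.35 RPKM in E15.5 females, against 0.26 and 0.64 RPKM at E12.5 (1.20 ± 0.33, limma adjusted p = 0.0196). Dmc1 had 1.32 and 1.87 RPKM in E15.5 females, against 0.025 and 0.79 RPKM at E12.5. Sycp1 had 1.93 and 2.99 RPKM in E15.5 females, against 0.66 and 1.07 RPKM at E12.5 (0.88 ± 0.30, limma adjusted p = 0.0592), and it passed without E15.5 male replicate 1 (0.0417) or E15.5 male replicate 2 (0.0404).
Some markers of other cells were higher in this step as well. The 8 mesenchyme markers summed to 23.3 and 28.4 RPKM in E15.5 females, against 3.08 to 8.16 RPKM at E12.5, and of 7 tested 2 were higher: Hand1, at 19.2 ± 2.27 RPKM in E15.5 females and 2.183 ± 1.34 RPKM at E12.5 (SD, n = 2 each; limma adjusted p = 0.00494), and Prrx2, at 4.87 RPKM in E15.5 females and 0.32 RPKM at E12.5 on average (limma adjusted p = 0.019). Of 9 gonad soma markers tested 1, Lhx9, was higher, at 22.3 ± 10.1 RPKM in E15.5 females and 6.48 ± 0.45 RPKM at E12.5 (SD, n = 2 each; limma adjusted p = 0.00363). The other markers tested did not pass, 5 of mesenchyme and 8 of gonad soma, and Prrx1 and Col1a2 were at 0 in E15.5 females. The median log2 change was -0.08 over the mesenchyme markers and -0.07 over the gonad soma markers, against 0 over all genes. The part of such cells in the differences was not tested.
The calls of Rec8, Smc1b, Sycp2 and Sycp3 held whichever library was left out, whereas Stra8 and Dmc1 could not be tested without either female library. Stag3 was lost without E15.5 female replicate 1 (limma adjusted p = 0.0812), Hormad1 without E12.5 replicate 1 (0.183), E15.5 female replicate 1 (0.0652) or E15.5 female replicate 2 (0.106), and Spo11 without E12.5 replicate 1 (0.139), E15.5 female replicate 1 (0.0683) or E15.5 female replicate 2 (0.091). In this step 5 members passed with a pseudocount of 0.1, and 5 with the spread of these libraries alone, Stra8 among them in both.

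In males, which do not enter meiosis before birth, 5 of the 10 members were higher in E15.5 libraries than in those of E12.5 and 0 were lower, where 8.73% of all genes passed, 3.58% higher and 5.15% lower. This step and the female one share the E12.5 libraries. Sycp3 had 37.2 and 36.4 RPKM in E15.5 males, against 9.33 and 10.7 RPKM at E12.5 (3.68-fold; 1.78 ± 0.41, limma adjusted p = 0.015). Stag3 had 32.9 and 44.2 RPKM in E15.5 males, against 10.3 and 9.77 RPKM at E12.5 (3.84-fold; 1.83 ± 0.46, limma adjusted p = 0.0237). Both therefore passed 30 RPKM in male germ cells at an age when Stra8 was listed at 0 there.
Smc1b had 38.8 and 44.6 RPKM in E15.5 males, against 18.7 and 16.9 RPKM at E12.5 (2.35-fold; 1.18 ± 0.29, limma adjusted p = 0.0227). Sycp2 had 10.3 and 12.02 RPKM in E15.5 males, against 4.58 and 2.64 RPKM at E12.5 (3.09-fold; 1.43 ± 0.33, limma adjusted p = 0.0164). Spo11 had 3.56 and 4.05 RPKM in E15.5 males, against 0.26 and 0.64 RPKM at E12.5 (8.47-fold; 1.74 ± 0.33, limma adjusted p = 0.00439). For all of these the male libraries lay wholly above those of E12.5, as they did for 27.3% of all genes.
Hormad1 had 24.8 and 28.7 RPKM in E15.5 males, against 9.19 and 17.7 RPKM at E12.5 (limma adjusted p = 0.232). Rec8 had 5.40 and 9.23 RPKM in E15.5 males, against 1.58 and 3.68 RPKM at E12.5 (limma adjusted p = 0.305). Sycp1 had 1.74 and 3.67 RPKM in E15.5 males, against 0.66 and 1.07 RPKM at E12.5 (limma adjusted p = 0.0714; 0.0428 without E15.5 male replicate 1). None of these 3 overlapped, and none passed with all libraries, whereas Dmc1, at 0.29 and 0.66 RPKM in E15.5 males, overlapped with its E12.5 libraries.
Some somatic markers were higher in this step too. The 14 gonad soma markers summed to 36.5 and 37.2 RPKM in E15.5 males, against 12.1 to 13.1 RPKM at E12.5, and of 9 tested 2 were higher: Lhx9, at 21.7 ± 3.10 RPKM in E15.5 males and 6.48 ± 0.45 RPKM at E12.5 (SD, n = 2 each; limma adjusted p = 0.00695), and Amh, at 3.20 and 1.02 RPKM in E15.5 males and listed at 0 at E12.5, which met the filter on low values only with these male libraries. The mesenchyme markers summed to 21.1 and 24.8 RPKM in E15.5 males, against 3.08 to 8.16 RPKM at E12.5, with 1 of 7 tested higher (Prrx2, limma adjusted p = 0.000831). The other markers tested did not pass, 7 of gonad soma and 6 of mesenchyme. Dhh, Foxl2, Wnt4, Prrx1 and Col1a2 were at 0 in E15.5 males. The median log2 change was 0.09 over the gonad soma markers and -0.15 over the mesenchyme markers, against 0 over all genes. The part of somatic cells in the member levels was not tested.
The male calls rested on few libraries: 1 member passed without E12.5 replicate 1, 1 without E12.5 replicate 2, 2 without E15.5 male replicate 1 and 1 without E15.5 male replicate 2. With a pseudocount of 0.1, or with the spread of these 4 libraries alone, 1 passed.

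Between the sexes at E15.5, 3 of the 10 members were higher in females and 0 were lower, where 9.68% of all genes passed, 4.33% higher and 5.35% lower. Stra8, 1 of the 3, was again tested only through the female libraries and is described without a p, and of the 8 members other than Stra8 and Dmc1, 2 were higher and 0 lower. Since both steps start from the same E12.5 libraries, of unlabelled sex, this contrast is also the test of the difference between the steps. Whether the sexes already differed at E12.5 cannot be seen. Stra8 had 71.9 and 80.4 RPKM in females and was listed at 0 in both male libraries. Rec8 had 66.2 and 57.8 RPKM in females, against 5.40 and 9.23 RPKM in males, an 8.47-fold ratio (2.96 ± 0.64, limma adjusted p = 0.00966). Smc1b had 91.8 and 129.5 RPKM in females, against 38.8 and 44.6 RPKM in males, a 2.65-fold ratio (1.37 ± 0.29, limma adjusted p = 0.00936). Of the 8, 5 had both female libraries above both male libraries, Rec8 and Smc1b among them, as did 26.5% of all genes.
Sycp2 was 2.177-fold higher in the mean of females, at 24.3 ± 0.0073 RPKM in females and 11.1 ± 1.24 RPKM in males (SD, n = 2 each; limma adjusted p = 0.0613), and it passed without E9.5 replicate 1 (0.0469) or E9.5 replicate 2 (0.0468). Dmc1 had 1.32 and 1.87 RPKM in females, against 0.29 and 0.66 RPKM in males, without overlap. The ratio of means, females over males, was 1.70 for Sycp3 (limma adjusted p = 0.346) and 1.64 for Hormad1 (adjusted p = 0.426), neither of which overlapped.
Stag3 overlapped between the sexes, with 72.1 and 27.4 RPKM in females, against 32.9 and 44.2 RPKM in males (limma adjusted p = 0.863). Sycp1 overlapped too, at a ratio of 0.91 (limma adjusted p = 0.962). Spo11 had 2.25 and 2.35 RPKM in females, against 3.56 and 4.05 RPKM in males, a ratio of 0.60 (limma adjusted p = 0.363), and it was the only member whose libraries were all lower in females. The ratio of females to males thus lay between 0.60 and 8.47 among the 9 genes read in both sexes.
The Rec8 call was lost without E15.5 male replicate 1 (limma adjusted p = 0.0916) or E15.5 female replicate 1 (0.0559), and that of Smc1b without E15.5 male replicate 1 (0.0849) or E15.5 female replicate 2 (0.111). With a pseudocount of 0.1 neither passed, and with the spread of the 4 E15.5 libraries alone 0 members passed (limma adjusted p = 0.09 for Rec8 and 0.117 for Smc1b).
The E15.5 sexes had like sums of germ cell markers, 1955 and 1971 RPKM in females and 1919 and 1940 RPKM in males. Single markers could differ: 10 of 10 were on in females and 9 in males, and Dppa3 averaged 61.6 RPKM in females and 0.395 RPKM in males. Mesenchyme markers summed to 23.3 and 28.4 RPKM in females and 21.1 and 24.8 RPKM in males, with 2 of 8 on and Prrx1 and Col1a2 at 0 in both sexes. Hand1, a mesenchyme marker, was higher in females, at 19.2 ± 2.27 RPKM in females and 2.13 ± 0.36 RPKM in males (SD, n = 2 each; limma adjusted p = 0.00986). The 14 gonad soma markers summed to 20.0 and 38.9 RPKM in females and 36.5 and 37.2 RPKM in males, with 3 of 14 on in females and 4 of 14 in males and Foxl2 at 0 in both sexes. Their part in the differences was not tested.

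**Figure D3:**
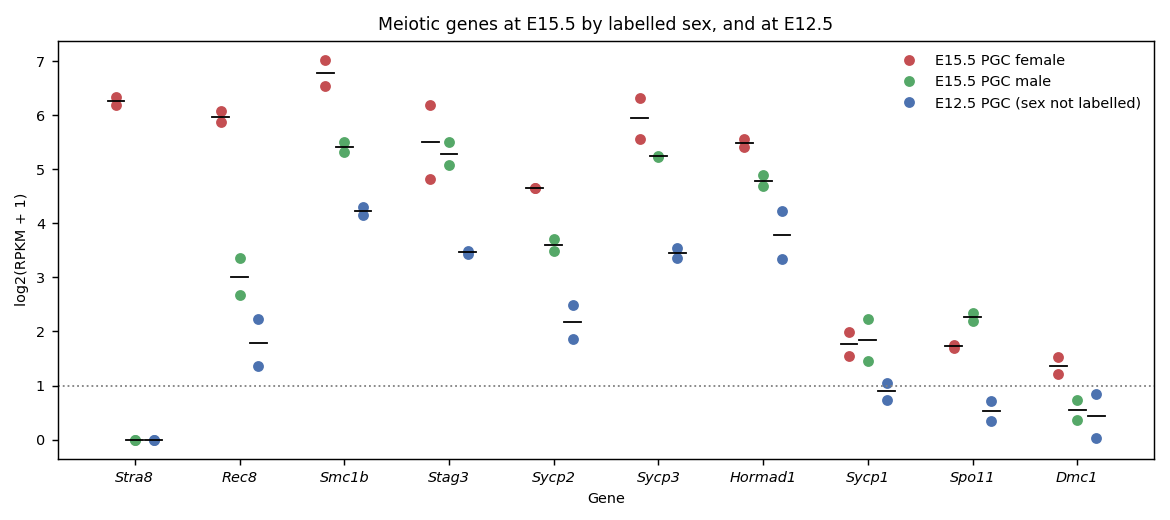
Level of each gene, as log2(RPKM + 1), in E15.5 females (red), E15.5 males (green) and E12.5 PGC of unlabelled sex (blue); points are libraries, black lines are group means, and the dotted line is 1 RPKM. Stra8 and Rec8 show the widest gaps between the sexes, Stag3 and Sycp1 overlap between them, and Spo11 is lower in females.

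In meiosis these cohesin subunits take the place of mitotic ones, so each was set against its mitotic counterpart per length in the same library, as a ratio of RPKM. Smc1b over Smc1a was 3.09 and 4.30 in E15.5 females and 2.30 and 1.61 in E15.5 males, against 0.72 and 0.45 at E12.5 and at most 0.030 in epiblast. The order of both forms was thus the reverse in E15.5 libraries of either sex and in E12.5 libraries.
Rec8 over Rad21 was 1.46 and 1.18 in E15.5 females and 0.087 and 0.21 in E15.5 males, against 0.022 and 0.040 at E12.5. The meiotic kleisin exceeded the mitotic one in E15.5 females and in no library of the other groups.
Stag3 over Stag1 was 1.82 and 0.77 in E15.5 females and 1.39 and 1.34 in E15.5 males, against 0.33 and 0.38 at E12.5, and Stag3 over Stag2 was 2.87 and 1.38 in females and 2.16 and 3.21 in males. The sexes overlapped in both. These ratios are descriptions with no test. Of 10 mitotic cohesin genes, in a step where 8.6% of all genes were higher and 9.84% lower, 1 was higher in E15.5 females than at E12.5 (Esco2, 18.4 ± 0.18 RPKM in E15.5 females and 7.21 ± 0.45 RPKM at E12.5) and 1 was lower (Rad21, 47.2 ± 2.43 RPKM in E15.5 females and 81.5 ± 14.3 RPKM at E12.5).

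**Figure D4:**
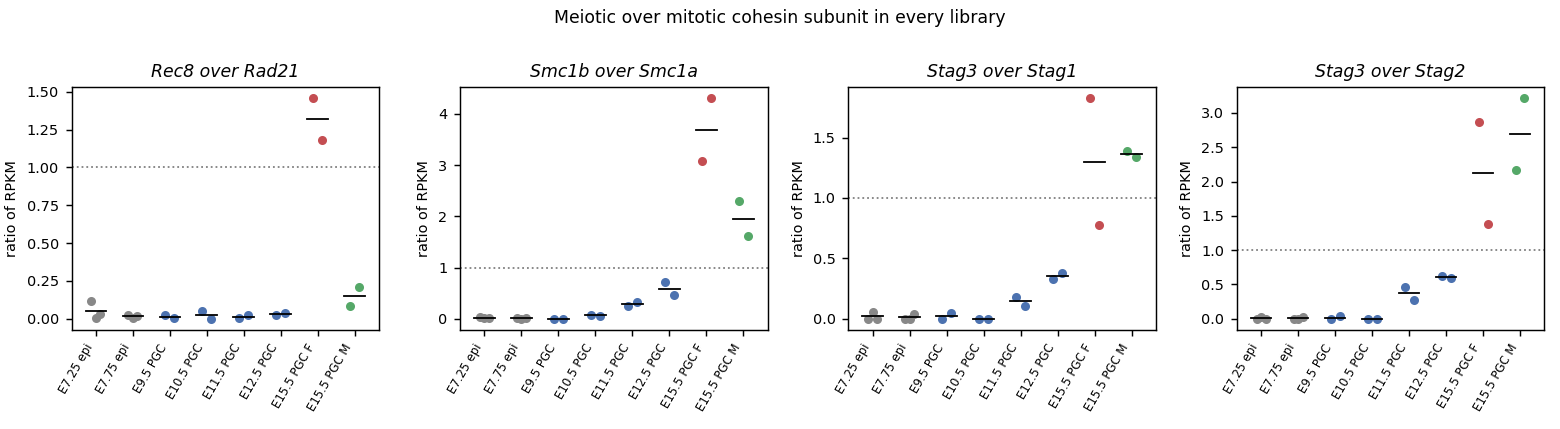
Ratio of the RPKM of a meiotic cohesin subunit to that of its mitotic counterpart in every library (linear axes of different height), with points for libraries, black lines for group means and a dotted line at 1. The ratio of Rec8 to Rad21 passes 1 in E15.5 females only, at 1.46 and 1.18, whereas that of Smc1b to Smc1a passes 1 in both sexes.

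Other genes of meiosis were counted by lists. Of 7 measured regulators of meiotic entry, 4 were higher and 1 was lower in E15.5 females than at E12.5, where 18.4% of all genes passed. Zglp1, which in the mouse sets the oogenic fate, averaged 133.7 ± 26.9 RPKM in E15.5 females and 3.81 ± 1.24 RPKM at E12.5 (SD, n = 2 each; limma adjusted p = 1.65e-05), and 11.2 ± 3.33 RPKM in E15.5 males (females against males, adjusted p = 0.000448). Rbm46, an RNA-binding protein needed for meiosis in the mouse, averaged 44.1 ± 3.12 RPKM in E15.5 females and 5.65 ± 0.17 RPKM at E12.5. Zglp1 and Stra8 were both far higher in females than in males. The transcription factor gene Etv5 fell to 57.1 ± 1.44 RPKM in E15.5 females, against 156.8 ± 5.11 RPKM at E12.5.
Of 10 other genes of the synaptonemal complex 2 were higher in E15.5 females than at E12.5, of 18 other recombination genes tested 3 were, and of 6 other cohesin or telomere attachment genes 1 was, and 0 in these lists were lower. Among all genes, 8.6% were higher and 9.84% lower in this step. Syce2, a central element protein, averaged 79.2 ± 4.21 RPKM in E15.5 females and 9.02 ± 0.63 RPKM at E12.5. Hfm1, a helicase of crossing over, averaged 19.3 ± 2.43 RPKM in E15.5 females and 3.53 ± 0.17 RPKM at E12.5. Ccdc79, whose product ties telomeres to the nuclear envelope, averaged 19.9 ± 3.38 RPKM in E15.5 females and 2.92 ± 0.33 RPKM at E12.5. Tex11 and Ankrd31 passed as well. Between the sexes 0 genes of these lists passed by limma, with 1, 4 and 1 at an unadjusted p under 0.05 in the order given. Among all 14865 genes tested, 9.68% passed between the sexes, and 3414 genes were at an unadjusted p under 0.05.

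At E12.5 several of these genes were already far above epiblast. Of the 10 synaptonemal complex genes 6 were higher and 0 lower than in epiblast, of the 18 recombination genes 11 were higher and 0 lower, and of the 7 entry regulators 6 were higher and 0 lower, where 46.1% of all genes passed. Dazl, an RNA-binding protein that licenses germ cells for meiosis in the mouse, averaged 381.3 ± 17.6 RPKM at E12.5 and 0.63 RPKM in epiblast. Tex12, another central element gene, averaged 86.8 ± 0.31 RPKM at E12.5 and 3.95 ± 2.22 RPKM in epiblast. Rec114, a partner of the break machinery, averaged 88.0 ± 15.8 RPKM at E12.5 and 11.2 ± 4.09 RPKM in epiblast. Fkbp6 and Tex19.1 were also higher. Per length, each of these levels at E12.5 stood above all 10 members, of which the highest was Smc1b at 17.8 RPKM.
Between E12.5 and E11.5, Dazl (3.87-fold), Tex15 (4.68-fold) and Sgol2 (2.34-fold) passed (limma adjusted p at most 0.0115), in a step where 0 members did. The E11.5 libraries of this step were the shallower ones.

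Of 15 tested genes of retinoic acid signalling, the pathway that induces Stra8 in the mouse, 1 was higher and 0 were lower in E15.5 females than at E12.5, where 8.6% of all genes were higher and 9.84% lower. Crabp1, which binds retinoic acid in the cytoplasm, averaged 376.3 ± 70.6 RPKM in E15.5 females and 31.3 ± 4.77 RPKM at E12.5, with 202.7 ± 1.59 RPKM in E15.5 males. Aldh1a2, which makes retinoic acid, averaged 9.93 ± 1.35 RPKM in E15.5 females and 56.3 ± 10.9 RPKM in E15.5 males (limma adjusted p = 0.0239).
Of 16 genes known to repress germ line genes in somatic or stem cells, 2 were higher and 6 lower at E12.5 than in epiblast, where 25.9% of all genes were higher and 20.2% lower, so the share that passed, 8 of 16, was near the 46.1% of all genes. The methyltransferase gene Dnmt3b averaged 11.1 ± 2.37 RPKM at E12.5 and 1110 ± 148 RPKM in epiblast, and Dnmt3a averaged 16.8 ± 1.62 RPKM at E12.5 and 178.3 ± 23.1 RPKM in epiblast. Uhrf1, needed to maintain DNA methylation, averaged 28.3 ± 10.2 RPKM in E15.5 females and 10.04 ± 2.40 RPKM in E15.5 males (limma adjusted p = 0.00883). E2f6, singled out after its values were seen because of the promoter motif, was read at every stage. It ranged from 40.7 to 74.9 RPKM in epiblast, 75.6 to 78.9 RPKM at E9.5 and 37.7 to 43.7 RPKM at E10.5. Its range was 30.6 to 47.4 RPKM at E11.5 and 31.5 to 48.9 RPKM at E12.5. In E15.5 females it was 27.6 to 29.9 RPKM, and in E15.5 males 28.5 to 31.5 RPKM. The E9.5 libraries were thus highest, but only just above the top of epiblast. They also had mesenchyme marker sums of 417 and 435 RPKM, and the part of such cells in the E2f6 level was not tested.

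Across the 18 libraries the courses of the members were alike to different degrees, given as Pearson's r of log2(RPKM + 1) with no test, since libraries of 1 stage share their source. The closest pair was Hormad1 and Smc1b (r = 0.973), and Stag3 and Sycp2 followed (r = 0.967). Spo11 stood apart, with r from 0.24 (with Stra8) to 0.40 (with Stag3). The nearest genes other than members were taken from the 11104 genes, members included, that reached 5 RPKM in at least 2 libraries. Sycp3 was closest to Ccdc172 (r = 0.98), LOC690142, Taf7l, Fubp1 and Ccdc79 (r = 0.95). Rec8 was closest to Dcdc2 (r = 0.92), Rn60_X_0641.4, Spdya, Tcf24 and Egfl6 (r = 0.91). Stra8 was closest to a U6 line (r = 0.998), a 5S_rRNA line, another U6 line, RGD1563746 and AABR07039210.1 (r = 0.91). The 3 small RNA lines were read in E15.5 females only, and short lines are sensitive to the length used for RPKM.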

How the data were processed

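RNA from epiblast and PGC was extracted with PicoPure and amplified with SMART-Seq v4, per the labels' protocols. The authors deposited 1 table of RPKM values for the 18 libraries. Tools listed in the submitters' processing notes are Cufflinks 2.2.1, TopHat2 2.1.0, cutadapt 1.14 and bcl2fastq 2.18.0.12, on rn6; no settings are recorded there. No counts were used, so no counting intervals are given.

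The 10 genes were matched by symbol. Groups came from the labels, with both sexes of epiblast of 1 day in 1 group, and all 18 libraries entered 1 limma model of 8 groups (limma 3.58.1, R 4.3.3) on log2(RPKM + 1) with a trended variance prior. Genes of at least 1 RPKM in at least 2 libraries were tested (14865 of 32545), and p-values were adjusted by Benjamini-Hochberg over all of them, with a threshold of 0.05. The model was tested on simulated data. Where a group was left with 1 library, that library was assumed to vary like the other groups. Some genes used by every cell are listed at 0 in this table, so a 0 need not mean absence.

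The members and all gene lists were chosen with earlier results of these data known. Apart from members, up to 2 genes that rose most and 2 that fell most were named per list, provided that the libraries did not overlap and that 1 group averaged 5 RPKM or more; for Stra8, Rec8 and Sycp3 the 5 most correlated other genes were named. Gene lists were matched by symbol, and listed genes absent from the table were not analysed here. Some genes of these subjects are left out of the lists and not reported here. Promoters were searched with Python 3.11.15 and pandas 2.3.3. Alternatives were the pseudocount, filter, scaling, libraries fitted, replicate block and each library left out.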

Additional observations from a re-analysis of the deposited data

Results flagged for a closer look

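Measured from the same E12.5 libraries, whose sex is not labelled, the step to E15.5 differed between the sexes in Rec8 and Smc1b. Its test is the limma contrast of females against males at E15.5 given above, in which the E12.5 libraries drop out. Whether the sexes already differed at E12.5 cannot be seen. The female step minus the male step was 2.96 on the log2 scale for Rec8 (limma adjusted p = 0.00966) and 1.37 for Smc1b (limma adjusted p = 0.00936). For Stra8 it was 6.27, given as a description, since Stra8 passed the filter on low values only through the female libraries. The Rec8 and Smc1b calls were lost with a pseudocount of 0.1 (limma adjusted p = 0.24 and 0.0857). They were also lost with the spread of the E15.5 libraries alone (limma adjusted p = 0.09 and 0.117), and without some single E15.5 libraries.

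Among the 6 epiblast libraries, 4 members had 1 library far above the rest. Stra8 stood at 0.41 RPKM, Hormad1 at 1.33 RPKM and Dmc1 at 0.077 RPKM in E7.25 male replicate 2, and each was listed at 0 in the other 5. Rec8 stood at 2.75 RPKM in E7.25 male replicate 1. Where 5 of the 6 libraries are at 0, any level above 0 is flagged. The flags of Stra8, Hormad1 and Dmc1 therefore do not show that a library is unusual.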

How the results depend on the processing

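No member call changed direction under any alternative. Counts for the female step and between the sexes include Stra8 and Dmc1, which passed the filter only through E15.5 females. With the spread taken from the compared libraries alone, the members passing numbered 0 between E10.5 and E9.5, 0 between E11.5 and E10.5, 5 between E15.5 females and E12.5, 1 between E15.5 males and E12.5 and 0 between the sexes; the genes passing numbered 9, 2204, 0, 56, 0, 1006, 333 and 0 in the 8 steps in the order of the report, with E12.5 against epiblast left aside. Fewer libraries then estimate the spread. A pseudocount of 0.1 gave 3 members between E9.5 and E7.75, 1 between E10.5 and E9.5, 5 and 1 in the female and male steps from E12.5 and 1 between the sexes. Between E9.5 and E7.75, quantile scaling, median-ratio scaling and the replicate block each gave 2, and between E10.5 and E9.5 quantile scaling and a filter of 5 RPKM each gave 1. At 5 RPKM 4 members were on before meiosis. Quantile scaling moved the share of passing genes that were higher between E9.5 and E7.75 to 48.3%, against 59% as reported.

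Leaving out 1 library at a time, the members passing ranged from 1 to 2 between E9.5 and E7.75, 1 to 2 between E10.5 and E9.5, 1 to 6 between E11.5 and E10.5, 0 to 1 between E12.5 and E11.5, 5 to 7 between E12.5 and epiblast, 4 to 10 in the female step, 1 to 5 in the male step and 1 to 4 between the sexes; those on before meiosis ranged from 7 to 8. The genes passing ranged from 16 to 50 between E7.75 and E7.25, 347 to 1357 between E11.5 and E10.5, 219 to 1313 between E12.5 and E11.5, 1448 to 3035 in the female step, 495 to 1500 in the male step and 635 to 1658 between the sexes.

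As alternatives chosen after seeing the data, the 4 shallow libraries or the 2 of E9.5 were left out. Without the 4, 12 genes passed between E7.75 and E7.25, and the counts of members stayed at 1, 6, 9, 5 and 3. Without E9.5, 1 member passed between E12.5 and E11.5 (Stag3, limma adjusted p = 0.0475).

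The replicate numbers did not pair the samples: deviations of same-numbered samples correlated at -0.13 to 0.058 over 28 pairs, with 0 over 0.1. Under the replicate block Sycp3 passed between E9.5 and E7.75 (limma adjusted p = 0.0496) and Sycp2 did not between E11.5 and E10.5 (0.0536); no other member call changed. Relative depths of 20.7% to 23.0% at E10.5 and E11.5 limit what a 0 there can show.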

Other observations

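Of 11 genes tested from a list of fetal male germ cell genes, 0 were higher, 3 were lower and 8 did not pass in E15.5 females against males, where 4.33% of all genes were higher and 5.35% lower. Tdgf1, a co-receptor of NODAL, averaged 0.21 RPKM in females and 11.5 ± 3.52 RPKM in males (SD, n = 2; limma adjusted p = 0.00966). Lefty2, a NODAL inhibitor whose reads could be shared with a near-identical copy, averaged 0.84 ± 0.070 RPKM in females and 110.5 ± 4.64 RPKM in males (SD, n = 2 each; limma adjusted p = 0.000269). Dppa3, a germ cell marker, went the other way, with 61.6 ± 17.2 RPKM in females and 0.40 ± 0.0090 RPKM in males (limma adjusted p = 0.00295).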
